A study of Mus musculus with 15 samples.

Results

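The genes described here are the 3 Runx transcription factors (Runx1, Runx2 and Runx3), their shared partner Cbfb, and 6 genes of bone and cartilage cells (Sp7, Alpl, Spp1, Ibsp, Acan and Bglap). They were taken by gene name from the deposited matrix and are 10 of its 55359 genes. RNA was sequenced in 15 mouse samples, 3 in each of 5 groups, and each sample is named by its group and its own letter or number. 46LCNEC_cell is an adherent cell line, in dishes A, B and C at passage 17, and derives from a lung tumor classed as large cell neuroendocrine carcinoma (LCNEC). 57SCLC_cell is a line that grows in suspension, in flasks A, B and C at passage 11, and derives from a lung tumor classed as small cell lung carcinoma (SCLC). Both came from QKO mice, in which Rb1, Rbl1 and Trp53 are among the tumor suppressors inactivated, after an adenovirus brought Cre into the trachea. Rbl1 is null in these mice without Cre, so the hosts of the allografts lack it too, whereas floxed alleles such as those of Trp53 need Cre to be deleted. Cre was driven by the CMV promoter for the LCNEC tumor and by the K5 promoter of basal airway cells for the SCLC tumor. 46LCNEC_allo (tumors 312, 319 and 321) and 57SCLC_allo (tumors 275, 316 and 317) are tumors grown under the skin of syngeneic, immunocompetent QKO mice from those same cells mixed with Matrigel. Lung (CT3, CT4 and CT5) is normal lung tissue from littermates of the hosts. The mice that received the CMV virus were adult. Each type of carcinoma was represented by 1 line, so a difference between the lines cannot be told apart from a difference between the tumor types.

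Runx proteins bind DNA at a short motif and do so far better when paired with Cbfb, the non-DNA-binding subunit. Runx2 is the master regulator of the osteoblast, the cell that makes bone, and acts upstream of Sp7 (osterix). Bone matrix genes such as Spp1 (osteopontin), Ibsp (bone sialoprotein) and Bglap (osteocalcin) are textbook targets of this pathway, and Alpl encodes the alkaline phosphatase that allows mineral to form. Acan encodes aggrecan, the large proteoglycan of cartilage. Runx1 is best known from blood stem cells and Runx3 from T cells and sensory neurons, and Spp1 is also made by macrophages, so none of these genes belongs to bone alone.

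The libraries held between 9480244 and 44876572 reads. Of the labelled neuroendocrine identity, the RNA of 46LCNEC showed little in the markers examined, which do not include all those that the study stained as proteins. The 6 neuroendocrine markers examined (Chga, Chgb, Syp, Scg3, Elavl4 and Insm1) summed to between 17.7 and 40.3 normalized counts in 46LCNEC_cell and to between 23.2 and 57.5 in 46LCNEC_allo, against 208 to 240 in Lung and 45214 to 60106 in 57SCLC_cell. Normalized counts are reads divided by a size factor that puts the samples on a common scale. Among these markers, Chga encodes chromogranin A, which the study reported as stained at the protein level in LCNEC subcutaneous tumors. The 4 epithelial markers (Epcam, Krt8, Krt18 and Cdh1) summed to between 226 and 238 in 46LCNEC_cell and to between 136 and 246 in 46LCNEC_allo, against 13602 to 17373 in Lung and 41583 to 46741 in 57SCLC_cell. The fibroblast list, led by collagens, summed to between 82261 and 92752 in 46LCNEC_cell and to between 40.4 and 42.2 in 57SCLC_cell. In Lung it summed to between 27225 and 32416. By the limma test described below, 2 of its 8 genes were higher in 46LCNEC_cell than in Lung (Col1a1 and Col1a2). The list also had 3 lower genes there (Dcn, Lum and Pdgfra), beside 20.6% higher and 35% lower of all genes. Rb1 had 85.7 ± 17.2 (SD, n = 3) normalized counts in 46LCNEC_cell, 414 ± 314 in 57SCLC_cell and 291 ± 41.2 in Lung, whereas the means of Rbl1 and Trp53 were at least 830 in every group. Reads summed over a whole gene do not isolate deleted exons, so these levels do not check the genotype.

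**Figure D1:**
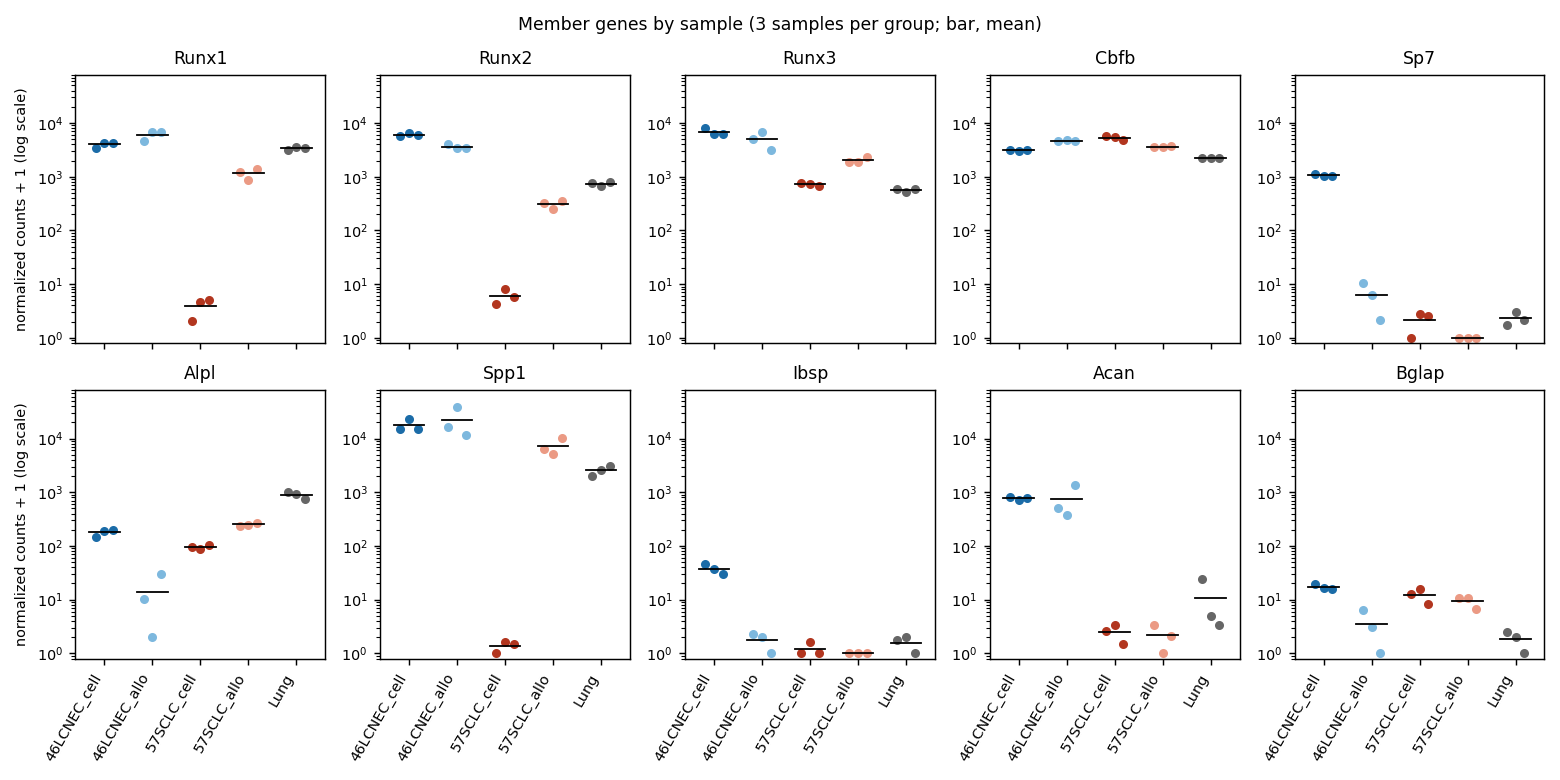
Normalized counts plus 1 on a log scale (y axis) of the 10 genes in the 5 groups (x axis), with 1 point per sample and a bar at the mean. Runx1, Runx2 and Spp1 lie at or under 7.24 normalized counts in the 3 flasks of 57SCLC_cell and at 255 or more in every other sample, while Sp7 and Ibsp stand out in 46LCNEC_cell alone.

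The number of these genes that differed depended on the pair of groups. A gene was called when limma's adjusted p was at most 0.01 and the fold change at least 2. In 57SCLC_cell against 46LCNEC_cell, 7 of the 10 tested were lower (Runx1, Runx2, Runx3, Sp7, Spp1, Ibsp and Acan) and 0 higher, where 22.2% of all genes tested were lower and 23.9% higher. In 57SCLC_allo against 46LCNEC_allo, 4 of the 7 tested were lower (Runx1, Runx2, Runx3 and Acan) and 1 was higher (Alpl), beside 14.2% and 16.1% of all genes. From cells to allografts, 5 of the 6 tested rose in 57SCLC (Runx1, Runx2, Runx3, Alpl and Spp1) and 0 fell, where 14.4% of all genes rose and 2.29% fell. In 46LCNEC, 3 of the 10 tested fell (Sp7, Alpl and Ibsp) and 0 rose, where 8.45% of all genes fell and 14.4% rose. The remaining genes of each comparison were either not called or too low to be tested, which required 10 normalized counts in at least 3 of the samples compared. Genes under 10 in every sample of 1 group were tested only through the other group, which fixed their direction. Between the cell lines these were Runx1, Runx2, Sp7, Spp1, Ibsp and Acan, and between the allografts Acan. From cells to allografts they were Runx1, Runx2 and Spp1 in 57SCLC, and Sp7, Ibsp and Bglap in 46LCNEC.

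Against Lung, 46LCNEC_cell had 7 of 10 higher (Runx2, Runx3, Sp7, Spp1, Ibsp, Acan and Bglap) and Alpl lower, with 20.6% of all genes higher and 35% lower. In 46LCNEC_allo, 5 of 7 were higher (Runx2, Runx3, Cbfb, Spp1 and Acan) and Alpl was lower, beside 13.4% and 22.1% of all genes. In 57SCLC_cell, Cbfb was the 1 gene of 6 that was higher and 4 were lower (Runx1, Runx2, Alpl and Spp1), beside 21.1% and 32.7%. In 57SCLC_allo, 2 of 6 were higher (Runx3 and Spp1) and 3 were lower (Runx1, Runx2 and Alpl), beside 18.9% and 26.9%. Sp7, Ibsp and Bglap were tested against Lung only through 46LCNEC_cell, so their direction was fixed. Likewise Runx1, Runx2 and Spp1 in 57SCLC_cell were tested only through Lung. These 4 comparisons share the same 3 Lung samples, and each comparison between lines shares samples with those between cells and allografts. Alpl was lower than in Lung in all 4, and Runx2 was higher in both 46LCNEC groups and lower in both 57SCLC groups.

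Runx2 (ENSMUSG00000039153, GRCm39 chromosome 17, 44806874 to 45125684, minus strand) separated the lines widely in culture. It had 5802, 6502 and 5953 normalized counts in dishes A, B and C of 46LCNEC_cell and 3.27, 7.24 and 4.69 in flasks A, B and C of 57SCLC_cell, the latter from 6, 12 and 9 reads. It had 4099, 3374 and 3436 in tumors 312, 319 and 321 of 46LCNEC_allo. It had 326, 255 and 355 in tumors 275, 316 and 317 of 57SCLC_allo and 753, 668 and 809 in Lung CT3, CT4 and CT5. No 2 of the 5 groups overlapped, in the order 46LCNEC_cell, 46LCNEC_allo, Lung, 57SCLC_allo and 57SCLC_cell. The log2 fold change of 57SCLC_cell over 46LCNEC_cell was -10.02 ± 0.23 (SE; adjusted p = 1.33e-08), and that of the allografts was -3.55 ± 0.16 (adjusted p = 1.31e-05). Fold changes here are on the log2(normalized count + 1) scale, which understates those of genes near 0. From cells to allografts Runx2 rose by 5.73 ± 0.30 in 57SCLC, whereas in 46LCNEC its change of -0.75 ± 0.11 stayed under the 2-fold threshold. Exons of Runx2 overlap 881 bases of Runx2os1 and Supt3 on the other strand, and the strand setting of the read counting is not given in the sources used here, so reads in that stretch cannot be assigned to a strand.

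Runx1 (ENSMUSG00000022952, chromosome 16, 92398354 to 92623037, minus strand) was as scarce in the cultured SCLC line and abundant in the other 4 groups. Flasks A, B and C of 57SCLC_cell had 2, 6 and 8 reads (1.09, 3.62 and 4.17 normalized counts), against 3454, 4336 and 4172 normalized counts in 46LCNEC_cell. It had 4697, 6758 and 6859 in 46LCNEC_allo. Tumors 275, 316 and 317 of 57SCLC_allo had 1223, 878 and 1367, and Lung had 3210, 3554 and 3403. The ranges of 46LCNEC_cell and Lung overlapped, and their difference of 0.23 ± 0.10 on the log2 scale was not called (adjusted p = 0.049). The log2 fold change of 57SCLC_cell over 46LCNEC_cell was -10.07 ± 0.33 (adjusted p = 6.65e-08). In the allografts of the same line Runx1 was higher by 8.27 ± 0.37 (adjusted p = 1.16e-06). The 46LCNEC allografts exceeded Lung by 0.83 ± 0.16, under the 2-fold threshold, and passed it when tumor 312 was left out (1.01, adjusted p = 0.000599).

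Runx3 (ENSMUSG00000070691, chromosome 4, 134847952 to 134905301, plus strand) was the Runx gene that the SCLC line did express in culture. It had 748, 727 and 677 normalized counts in flasks A, B and C, at or above 1205 reads in each. 46LCNEC_cell had 8131, 6248 and 6267, and 46LCNEC_allo had 5094, 6686 and 3180, which overlapped the cells. 57SCLC_allo had 1860, 1867 and 2327, all above its cells, and Lung had 579, 529 and 590, the lowest group. The change from cells to allografts in 57SCLC was 1.48 ± 0.11 on the log2 scale (adjusted p = 1.64e-05). In allografts the line difference was -1.25 ± 0.27 (adjusted p = 0.007), and this call was lost without tumor 312 (adjusted p = 0.0262), 319 (0.0116), 275 (0.0325), 316 (0.0318) or 317 (0.0183), and when samples were scaled by library size alone (0.0145).

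**Figure D2:**
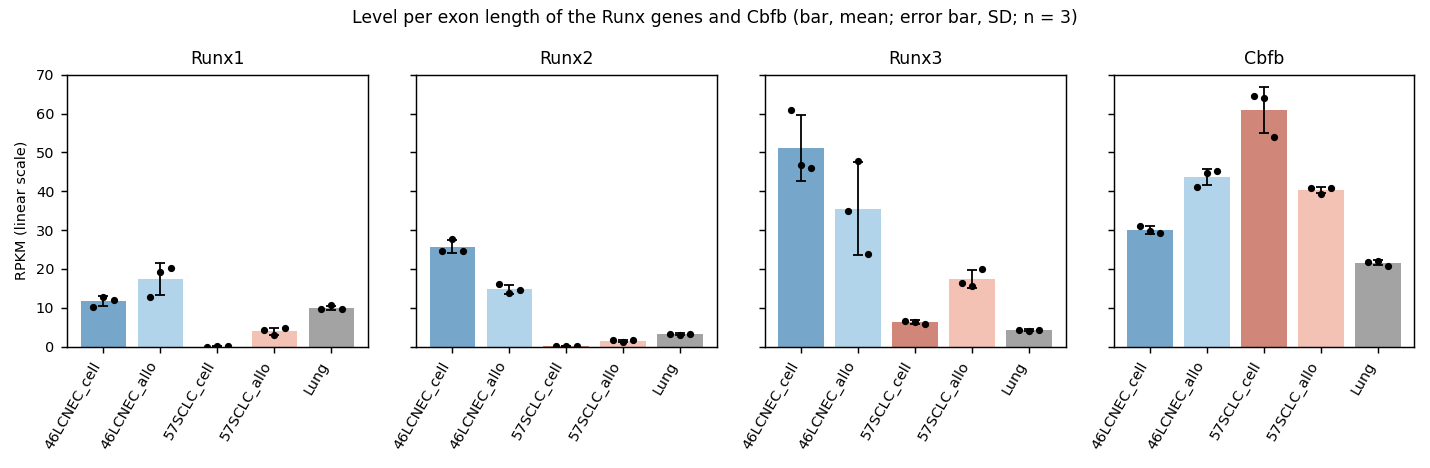
Level per exon length (RPKM, reads scaled to exon length and library total; y axis, linear) of Runx1, Runx2, Runx3 and Cbfb in the 5 groups (x axis), with bars at the mean, error bars of 1 SD and 1 point per sample (n = 3). Runx3 is the highest of the Runx genes in the 4 tumor and cell groups, from 6.27 to 51.2, and Runx1 in Lung, at 9.99.

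Levels of different genes can be compared only per length of transcript, here as RPKM over all annotated exons of a gene, scaled to the library total. In 46LCNEC_cell, the RPKM was 51.2 ± 8.5 for Runx3, 25.7 ± 1.7 for Runx2 and 11.7 ± 1.3 for Runx1, and the 3 ranges did not overlap. In 46LCNEC_allo, Runx3 stayed first at 35.5 ± 12, while Runx1 (17.4 ± 4.1) and Runx2 (14.7 ± 1.2) overlapped. In 57SCLC_cell, Runx3 had 6.27 ± 0.44, and the means of Runx1 and Runx2 were 0.0102 and 0.0251. In 57SCLC_allo the means were 17.3 for Runx3, 3.94 for Runx1 and 1.52 for Runx2. In Lung the order was another, with 9.99 ± 0.51 for Runx1, 4.21 ± 0.21 for Runx3 and 3.14 ± 0.25 for Runx2. By this measure Runx3 ranked first in each tumor or cell group and second in Lung, without a test between genes. The exon lengths used were 12668 bases for Runx1, 8837 for Runx2 and 5014 for Runx3, and the transcripts made may be shorter. The order depends on these lengths, as mean normalized counts in 46LCNEC_allo were 6105 for Runx1 and 4987 for Runx3.

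Cbfb (ENSMUSG00000031885, chromosome 8, 105897291 to 105944633, plus strand), the partner, was abundant in every sample, with higher values in the 46LCNEC allografts than in their cells and lower values in the 57SCLC allografts than in theirs. Dishes A, B and C of 46LCNEC_cell had 3195, 3068 and 3083 normalized counts, and tumors 312, 319 and 321 had 4623, 4817 and 4655. Flasks A, B and C of 57SCLC_cell had 5634, 5584 and 4884, tumors 275, 316 and 317 had 3574, 3632 and 3661, and Lung had 2227, 2269 and 2211. No 2 groups overlapped, and the cells of the line with almost no Runx1 or Runx2 held the most Cbfb. The changes from cells to allografts were 0.59 ± 0.08 in 46LCNEC and -0.56 ± 0.08 in 57SCLC, each under the 2-fold threshold, and their difference of -1.16 ± 0.11 was called in the test across both lines (adjusted p = 7.55e-06).

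Short windows of the RefSeq promoters are printed because they show where the letters bound by Runx proteins recur in the Runx genes themselves and in Spp1 and Bglap. Promoter sequences of 300 bases (250 before and 50 after the RefSeq start, extracted on GRCm38.p6) were found for 9 of the 10 genes, some with several starts, and not for Sp7. They were searched on both strands for TGTGGT and TGCGGT, which cannot match the same bases. At least 1 of these motifs stands in 22.4% of the 32851 promoter windows of this table, so a single match is common. The windows of Alpl, Ibsp, Acan and Cbfb held none. Each line gives 30 bases in the direction of the gene with its GRCm39 position, found by exact match, and capitals mark the motif, which on the gene's strand mostly reads as its reverse complement.
Runx1, chr16:92622913-92622942, minus strand: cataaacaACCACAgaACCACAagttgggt
Runx2, chr17:45125466-45125495, minus strand: aacaACCACAgaACCACAagTGCGGTgcaa
Runx3, chr4:134847814-134847843, plus strand: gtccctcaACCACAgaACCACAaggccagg
Runx2, chr17:45125577-45125606, minus strand: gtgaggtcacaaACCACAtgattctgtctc
Spp1, chr5:104582837-104582866, plus strand: tttttttttttaACCACAaaaccagaggag
Bglap, chr3:88291888-88291917, minus strand: ccgcaatcacctACCACAgcatcctttggg

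The first 3 windows hold a pair of motifs, 2 bases apart, in a run of 18 bases that is identical in the upstream start regions of Runx1, Runx2 and Runx3 (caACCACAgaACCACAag). This run was found in 4 of the 32851 windows, and the fourth belongs to Gm16225, a gene on the opposite strand at the same place as the Runx3 window. Any pair of motifs at most 4 bases apart was found in 0.137% of windows. The motifs begin at positions -134 and -126 from the RefSeq start in Runx3, at 29 and 37 in Runx1, and at 24 and 32 in Runx2. The single motifs begin at -128 in Spp1, at -132 in Bglap and at -80 in Runx2. In GENCODE release 39 the printed windows of Runx1, Runx2 and Spp1 overlap exons of those genes, and the Runx2 window with the pair also overlaps coding sequence. The Runx3 window overlaps an exon of Gm16225 on the opposite strand, and that of Bglap overlaps no exon. The RNA data do not say which start was used, and binding was not measured.

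Sp7 (ENSMUSG00000060284, chromosome 15, 102265038 to 102279370, minus strand) was abundant in the cultured LCNEC line and at 7 reads or fewer in every other sample. Dishes A, B and C of 46LCNEC_cell had 1142, 1021 and 1034 normalized counts, and tumors 312, 319 and 321, grown from the same cells, had 9.27, 5.26 and 1.11 (7, 5 and 1 reads). 57SCLC_cell had 0, 3 and 3 reads, 57SCLC_allo had 0 in every tumor and Lung had 1, 2 and 1. A count of 3 reads or fewer in a library is taken here as not detected, and such limits cover counting error only. The fall from 46LCNEC_cell to 46LCNEC_allo was -7.70 ± 0.54 on the log2 scale (adjusted p = 5.36e-05). By pooled reads, 46LCNEC_cell stood 961-fold above 57SCLC_cell (95% counting interval 441 to 2620) and 851-fold above Lung (332 to 3125). Runx2 had between 3374 and 4099 normalized counts in the same 3 tumors, below the 5802 to 6502 of the dishes. Its relation to the fall of Sp7 was not tested.

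Ibsp (ENSMUSG00000029306, chromosome 5, 104447037 to 104459338, plus strand) had the same pattern at a low level. It had 46.0, 36.4 and 28.4 normalized counts in dishes A, B and C (49, 33 and 37 reads) and at most 1 read in each of the 12 other samples. The fall in 46LCNEC allografts was -4.47 ± 0.48 (adjusted p = 0.000318), and the pooled reads gave a ratio of 47.4 between cells and allografts (95% counting interval 12.8 to 396).

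Alpl (ENSMUSG00000028766, chromosome 4, 137469039 to 137524102, minus strand) was highest in Lung, where CT3, CT4 and CT5 had 1014, 932 and 759 normalized counts. The cells had less, with 148, 187 and 201 in 46LCNEC_cell and 94.4, 87.5 and 102 in 57SCLC_cell. The lines then parted, with 9.27, 1.05 and 28.8 in tumors 312, 319 and 321 and 237, 246 and 268 in tumors 275, 316 and 317. No 2 groups overlapped. The change from cells to allografts was -4.38 ± 0.87 in 46LCNEC (adjusted p = 0.00491) and 1.40 ± 0.15 in 57SCLC (adjusted p = 0.000152). The fall in 46LCNEC was no longer called without dish A (adjusted p = 0.0223), B (0.0223) or C (0.0248) or without tumor 312 (0.0131). The higher Alpl of the 57SCLC allografts over those of 46LCNEC, 4.87 ± 0.91 (adjusted p = 0.00377), was likewise lost without tumor 312 (0.0128), 275 (0.0186), 316 (0.0184) or 317 (0.0184). With the spread estimated over all 15 samples, neither the rise in 57SCLC (adjusted p = 0.105) nor its deficit against Lung (0.0179) was called.

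Bglap (ENSMUSG00000074483, chromosome 3, 88290808 to 88291771, minus strand) was scarce everywhere. The 3 dishes had 20, 14 and 19 reads (18.8, 15.5 and 14.6 normalized counts) and the 3 flasks had 22, 25 and 14 (12, 15.1 and 7.29), which overlapped. Tumors 312, 319 and 321 had 4, 2 and 0 reads, tumors 275, 316 and 317 had 4, 7 and 5, and Lung had 2, 1 and 0. It was called for 46LCNEC_cell over Lung (3.33 ± 0.39, adjusted p = 3.53e-05). Over Lung it was too low to be tested in the 57SCLC groups, which did not overlap Lung, with ratios of pooled reads of 12 in cells (95% counting interval 3.92 to 59.8) and 8.50 in allografts (2.43 to 45.5). By limma, the change of Bglap from 46LCNEC_cell to 46LCNEC_allo (-2.67 ± 0.69) had an adjusted p of 0.0144, or of 0.0056 without tumor 312. Its neighbors Bglap2 and Bglap3 are near copies, with 98.9% and 96.4% identity to Bglap over 439 aligned bases of transcript, so the reads of the 3 genes are uncertain. Bglap2 had at most 5 reads in any sample and Bglap3 at most 34.

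Spp1 (ENSMUSG00000029304, chromosome 5, 104582165 to 104589235, plus strand), had the highest counts of the 10 genes in both 46LCNEC groups and the largest fitted difference of the 10 between the cell lines. It had 15062, 22655 and 15313 normalized counts in dishes A, B and C of 46LCNEC_cell, and 0, 1 and 1 reads in flasks A, B and C of 57SCLC_cell. Tumors 312, 319 and 321 had 16669, 39437 and 11493, which overlapped the cells. Tumors 275, 316 and 317 had 6435, 5191 and 10312, and Lung CT3, CT4 and CT5 had 2018, 2612 and 3130. By pooled reads, 46LCNEC_cell stood 46703-fold above 57SCLC_cell (95% counting interval 12928 to 385654), and 57SCLC_allo stood 20831-fold above its own cells (5766 to 172024). Both intervals are wide because the lower group rests on 2 reads. The allografts of the lines differed by -1.48 ± 0.47 on the log2 scale, with no overlap between the tumors of the lines, and this was not called (adjusted p = 0.034), but was by DESeq2 on recovered reads (-1.61, adjusted p = 0.00154) and with all 15 samples in 1 model (adjusted p = 0.00328). In 46LCNEC, Spp1 did not pass the test between allografts and cells (0.18 ± 0.43), and its sign there rested on tumor 319 (-0.33 without it).

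**Figure D3:**
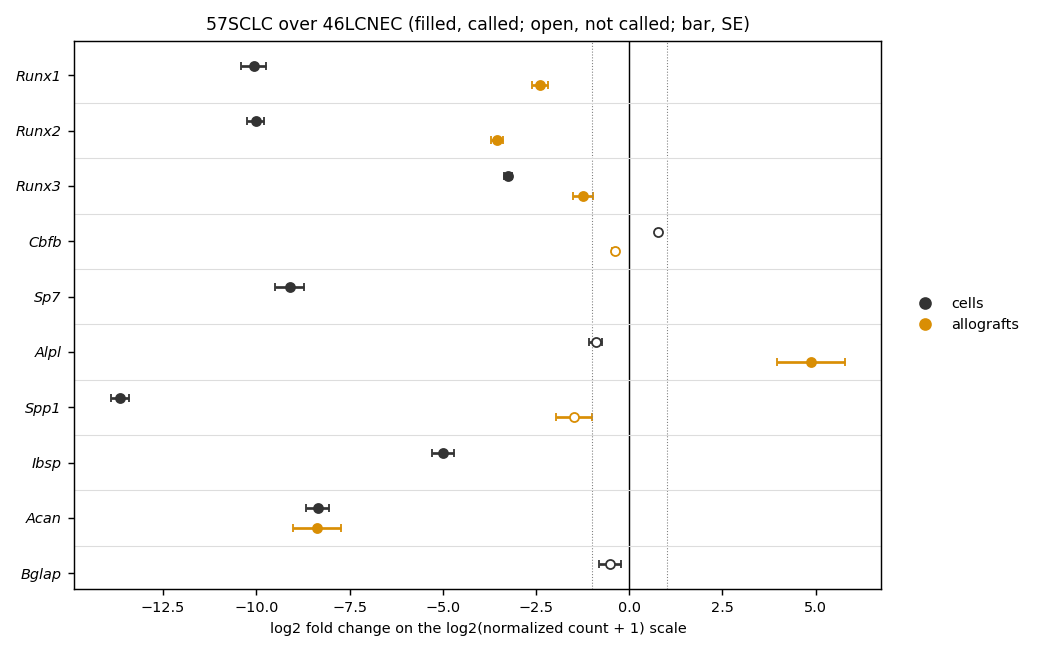
Log2 fold change of 57SCLC over 46LCNEC (x axis) for each gene (y axis) in cells and in allografts, with error bars of 1 SE, filled points for called genes and open points for genes not called. The lines at -1 and 1 mark the 2-fold threshold, and Runx1, Runx2, Runx3 and Spp1 lie closer to 0 in allografts than in cells, whereas Acan has -8.35 in cells and -8.37 in allografts. Acan had at most 4 reads in any 57SCLC sample.

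Acan (ENSMUSG00000030607, chromosome 7, 78702964 to 78764847, plus strand) was higher in 46LCNEC than in 57SCLC both in culture and after grafting. It had 827, 722 and 796 normalized counts in 46LCNEC_cell and 505, 381 and 1345 in tumors 312, 319 and 321, on both sides of the cells. The 57SCLC groups had at most 4 reads in any sample, and Lung had 31, 4 and 2 reads, with CT3 the highest. On the log2 scale 57SCLC stood at -8.35 ± 0.31 against 46LCNEC in culture (adjusted p = 1.08e-07), and after grafting at -8.37 ± 0.64 (adjusted p = 8.07e-05). The difference between those 2 values was -0.01 ± 0.75 (adjusted p = 0.991), and its standard error leaves room for a change of over 2-fold either way. Acan was too low in 57SCLC for a test between cells and allografts, so there was no 57SCLC change to compare. The 2 values are therefore distances of 46LCNEC from a level near 0 reads.

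The change from cells to allografts was then compared between the lines with an interaction term over 12 samples. The term was called in the positive direction for 7 of the 10 genes and in the negative direction for Cbfb, beside 10.8% and 6.78% of all genes tested. For 2 of these 7, Sp7 and Ibsp, there was no 57SCLC change to compare. The difference was 12.17 ± 0.56 for Spp1, 7.67 ± 0.43 for Runx1, 6.47 ± 0.30 for Runx2 and 2.00 ± 0.31 for Runx3 (largest adjusted p = 0.000407). In these 4 genes it came with a called rise in 57SCLC and no called change in 46LCNEC. For Sp7 (6.75 ± 0.78), Ibsp (4.24 ± 0.59) and Alpl (5.78 ± 0.97) it came with the fall in 46LCNEC, and for Alpl also with a rise in 57SCLC. Sp7 and Ibsp were not detected in either 57SCLC group and were tested only through their level in 46LCNEC_cell, so the size of their difference depends on the pseudocount. On recovered reads, edgeR called neither (adjusted p = 0.948 for Sp7 and 0.95 for Ibsp). Over the alternatives run, the difference for Spp1 ranged from 10.17 to 14.10 and that for Runx1 from 6.59 to 8.14.

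**Figure D4:**
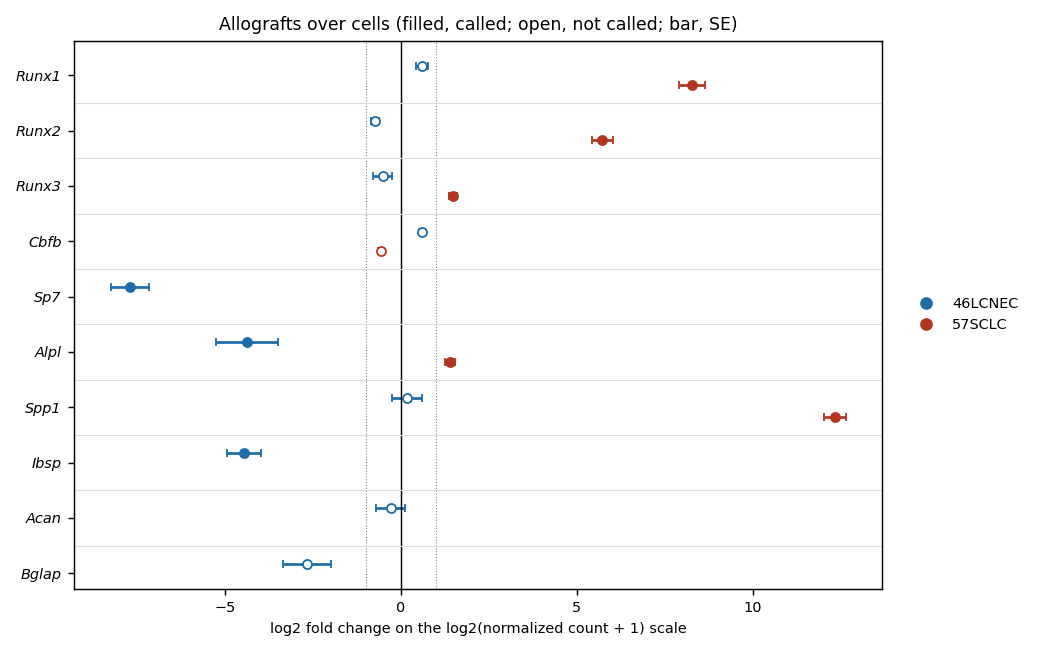
Log2 fold change of allografts over cells (x axis) for each gene (y axis) in 46LCNEC and in 57SCLC, with error bars of 1 SE, filled points for called genes and open points for genes not called. Genes too low to be tested in a line have no point, and the called genes are all on the positive side in 57SCLC and all on the negative side in 46LCNEC.

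The allografts are tissues of the host as well as of the grafted cells, and both are mouse, so their reads cannot be told apart. In such bulk samples fewer cells of a type and less RNA per cell cannot be told apart either. The 8 macrophage markers (Adgre1, Csf1r, Cd68, C1qa, C1qb, C1qc, Mrc1 and Ptprc) summed to between 292 and 324 normalized counts in 57SCLC_cell, with 4 of 8 at or under 3 reads, and to between 16626 and 34732 in 57SCLC_allo, where all 8 rose. In 46LCNEC the sums were 332 to 386 in cells and 36657 to 78241 in allografts, and in Lung 14708 to 15823. The 8 fibroblast markers, including Col1a1, Col1a2, Col3a1 and Dcn, all rose in both lines, with sums from between 40.4 and 42.2 in 57SCLC_cell to between 40721 and 62982 in 57SCLC_allo, and from between 82261 and 92752 in 46LCNEC_cell to between 433237 and 854863 in 46LCNEC_allo. The 6 endothelial markers summed to between 35.6 and 44.8 in 57SCLC_cell and to between 2956 and 4117 in its allografts. Runx1, Runx2 and Spp1 rose in the same tumors as these lists, and the part of host cells in those rises was not tested.

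Within each line the lists varied between tumors. In tumors 275, 316 and 317 of 57SCLC_allo, the macrophage sums were 34732, 16626 and 29255 and the fibroblast sums 48927, 40721 and 62982. In tumors 312, 319 and 321 of 46LCNEC_allo, the macrophage sums were 51171, 36657 and 78241 and the fibroblast sums 854863, 762765 and 433237. With 3 tumors in a line, no relation of these sums to Runx1, Runx2 or Spp1 was tested. The T cell markers (Cd3e, Cd3d, Cd3g, Cd4, Cd8a and Trbc2), listed because T cells express Runx3, summed to at most 10.4 in 57SCLC_cell, to between 229 and 376 in 57SCLC_allo and to between 1895 and 2264 in Lung. In tumors 312, 319 and 321 of 46LCNEC_allo the T cell sums were 105, 66.3 and 1334. The part of T cells in the Runx3 level was not tested. Osteoclasts, the bone-resorbing cells, also make Spp1. Their 7 markers summed to between 28.3 and 32.2 in 57SCLC_cell and to between 695 and 1396 in 57SCLC_allo, where all 4 tested rose (Atp6v0d2, Ctsk, Dcstamp and Ocstamp). In 46LCNEC the sum went from between 98.4 and 141 to between 404 and 1023, and all 3 tested rose. Of all genes tested, 14.4% rose from cells to allografts in each line. In Lung the osteoclast sum was between 2264 and 2840, above that of every allograft. Acp5, the defining enzyme of the list, was at or under 3 reads in each of the 5 groups, and the part of these cells in the Spp1 level was not tested.

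**Figure D5:**
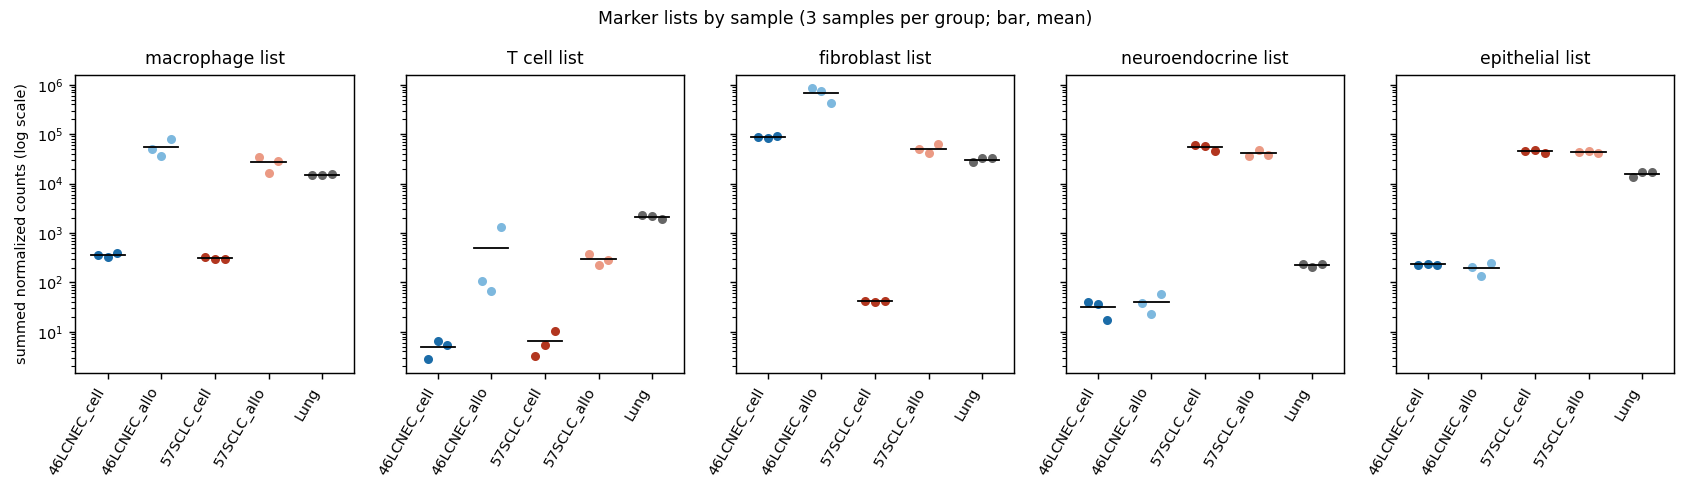
Summed normalized counts on a log scale (y axis) of the macrophage, T cell, fibroblast, neuroendocrine and epithelial marker lists in the 5 groups (x axis), with 1 point per sample and a bar at the mean. The macrophage and fibroblast sums rise from cells to allografts in both lines, and the neuroendocrine and epithelial sums separate 57SCLC from 46LCNEC in both states.

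Of 24 other genes of bone matrix and mineralization, 16 were tested between the cell lines, and 12 were lower and 1 higher in 57SCLC_cell, beside 22.2% lower and 23.9% higher of all genes, with a median log2 change of -4.72 against 0.00 over all genes. Sparc (osteonectin, -14.02 ± 0.46) and the 2 chains of type I collagen, Col1a2 (-13.98 ± 0.27) and Col1a1 (-12.51 ± 0.22), were lower, and Smpd3 (a sphingomyelinase needed for mineralization, 4.01 ± 0.13) was higher. In this and the other gene lists, some genes were under 10 normalized counts in every sample of 1 group. Such genes were tested only through the other group, which fixed their direction, and the counts and medians include them. In 57SCLC_cell they included Sparc, Col1a1 and Col1a2, both against 46LCNEC_cell and against the 57SCLC allografts. From cells to allografts, 11 of 15 rose in 57SCLC, beside 14.4% of all genes, with a median of 3.25, and among them Col1a2 rose by 12.55 ± 0.30 and Col1a1 by 12.26 ± 0.26. In 46LCNEC, 8 of 17 rose, also beside 14.4%, with a median of 1.33, among them Cdh11 (osteoblast cadherin, 4.87 ± 0.30), the parathyroid hormone receptor Pth1r (3.82 ± 0.46) and Postn (periostin, 3.76 ± 0.49), and Smpd3 fell (-3.81 ± 0.21). The collagens of this list are also on the fibroblast list, of which Lum (11.32 ± 0.65) and Dcn (9.47 ± 0.44) rose in the same 46LCNEC tumors, and the part of host fibroblasts was not tested. Against Lung, 7 of 17 were higher and 5 lower in 46LCNEC_cell, beside 20.6% and 35% of all genes. In 46LCNEC_allo, 10 of 18 were higher and 1 lower, beside 13.4% and 22.1%. In 57SCLC_cell, 2 of 17 were higher and 12 lower, beside 21.1% and 32.7%. In 57SCLC_allo, 5 of 17 were higher and 4 lower, beside 18.9% and 26.9%, with a median of -0.07 against -0.09 over all genes.

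Cartilage genes were called in both directions. Of 24 cartilage genes, 16 were tested between the cell lines, where 7 were lower and 6 higher in 57SCLC_cell, beside 22.2% and 23.9% of all genes, with a median of -0.10. Col11a1 (-12.25 ± 0.22), the chondrocyte factor Sox9 (-10.78 ± 0.24) and the matrilin Matn3 (-7.55 ± 0.43) were lower, and Sox6 (6.21 ± 0.32), Col9a2 (5.95 ± 0.16) and the link protein Hapln1 (4.23 ± 0.35) were higher. In the 46LCNEC allografts, where Acan was not called, Col2a1 fell by 4.38 ± 0.92 on the log2 scale and Col11a1 by 4.28 ± 0.70, while Mmp13, a collagenase, rose by 5.58 ± 1.16. In all, 4 of 15 rose and 2 fell there, beside 14.4% and 8.45% of all genes, and in 57SCLC 6 of 14 rose and 2 fell, beside 14.4% and 2.29%. Among the relatives of Acan and Spp1, the proteoglycan Ncan was higher in 57SCLC_cell (6.22 ± 0.22) and Vcan had means of over 3300 normalized counts in all 4 tumor and cell groups against 241 ± 39.8 in Lung.

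Of 20 genes whose proteins bind or modulate Runx factors, 17 were tested between the cell lines, and 6 were lower and 4 higher in 57SCLC_cell, with a median of 0.06, and the share higher was close to the 23.9% of all genes (22.2% lower). Runx1t1, a corepressor of the ETO family, had 7887 ± 1584 normalized counts in 57SCLC_cell and 253 ± 28.8 in 46LCNEC_cell (4.95 ± 0.15 on the log2 scale), and its relative Cbfa2t2 was higher by 1.49 ± 0.07, as was the corepressor Tle4 by 2.46 ± 0.16. Twist1, which restrains Runx2 (-10.37 ± 0.38), the zinc finger protein Zfp521 (-8.95 ± 0.34) and the homeobox factor Dlx5 (-8.20 ± 0.26) were lower. Twist1, Zfp521 and Dlx5 were under 10 normalized counts in every flask of 57SCLC_cell, so the direction of their tested differences from it was fixed. From cells to allografts, Twist1 and Zfp521 were among the 3 that rose in each line, by 1.10 ± 0.12 and 1.71 ± 0.21 in 46LCNEC and by 7.57 ± 0.48 and 5.78 ± 0.42 in 57SCLC, and 3 of 18 and 3 of 16 rose in all, beside 14.4% of all genes in each. Of the 7 receptor genes for osteopontin, 5 were lower in 57SCLC_cell, beside 22.2% of all genes, led by Cd44 (-12.14 ± 0.12) and the integrins Itgav (-7.23 ± 0.17) and Itgb3 (-4.46 ± 0.19), and Itga4 was higher (3.10 ± 0.24). In 57SCLC allografts 5 of the 7 rose, beside 14.4% of all genes, with Cd44 higher by 8.27 ± 0.21, in the same tumors in which Spp1 rose.

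The genes with the most similar patterns over the 5 groups were sought by the root mean square difference of group means on the log2 scale, each centered on its own average, among 14898 genes with at least 100 normalized counts in every sample of a group. For Runx1 these were Spred1 (0.199), Dse (0.329) and Osmr (0.329). For Runx2 they were Vdr, the vitamin D receptor (0.356), Pter (0.427) and Kirrel (0.442). For Spp1 they were 3 matrix genes, Col5a2 (0.675), Fn1 (0.712) and Col6a2 (0.728), at a distance over 1.5 times those of the other 2 genes. All the genes named had a mean of at most 9.78 normalized counts in 57SCLC_cell, and this likeness over 5 group means is a description without a test.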

How the data were processed

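Poly-A selected RNA of 15 samples was sequenced as paired reads. Per the study's methods, the authors aligned reads to GRCm39 with Rbowtie2 and counted them by gene with featureCounts on GENCODE release 27. The deposited signal values are these counts divided by DESeq2 size factors. Each value was a whole multiple of 1 step per sample (tolerance 0.01 of a read), so reads, depth and RPKM were recovered. Gene positions and exon lengths came from GENCODE release 39, and promoters from RefSeq (GRCm38.p6).

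Pairs of groups were compared with limma 3.58.1 (R 4.3.3) with a mean-variance trend on log2(normalized count + 1) over genes that reached 10 normalized counts in 3 or more of the 6 samples. The interaction used 12 samples. P-values were Benjamini-Hochberg adjusted over all genes tested. Dishes, flasks or tumors of 1 line were the replicates, so p-values measure only the spread between these samples. Alternatives were edgeR 4.0.16 and DESeq2 1.42.0 on recovered reads, library size and upper quartile scaling, pseudocounts of 0.1 and 5, no filter on low genes, a threshold of 0.05 on the adjusted p, all 15 samples in 1 model, the letters of the cell samples as a block, and each sample left out. On simulated data with 200 changed genes and the same dispersion setting for every gene, limma was tested for recovery. The outcome is not given here and no result above rests on it. Transcripts were aligned with Biopython 1.88 and figures drawn with matplotlib 3.10.9.

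The genes, lists and tests were chosen with earlier results of these data known. Named were the 10 genes, Bglap2 and Bglap3, up to 3 genes per list, direction and comparison with the largest changes and at least 50 normalized counts in every sample of the higher group, defining markers, Rb1, Rbl1 and Trp53, and the 3 genes most like Runx1, Runx2 and Spp1. The shared promoter run was chosen after the windows were seen. Some deleted genes are not reported here.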

Additional observations from a re-analysis of the deposited data

Results flagged for a closer look

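The change from cells to allografts was compared between the lines by limma's interaction term (log2 change in 57SCLC minus that in 46LCNEC). The term was called in the positive direction for 7 of the 10 genes and in the negative for Cbfb, beside 10.8% and 6.78% of all genes tested. The difference was 12.17 for Spp1, 7.67 for Runx1, 6.47 for Runx2, 5.78 for Alpl and 2.00 for Runx3, and it was -1.16 for Cbfb. The 7 include Sp7 (6.75) and Ibsp (4.24), but neither gene was detected in either 57SCLC group, so there was no 57SCLC change to compare. On recovered reads, edgeR did not call Sp7 and Ibsp (adjusted p = 0.948 and 0.95). Groups of 3 are too small for a search for outlying samples.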

How the results depend on the processing

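Of 72 changes of single genes, 56 kept their direction and their side of the threshold under every alternative run, and of 1140 repeats 1098 did so. The count of genes called in 57SCLC_allo against 46LCNEC_allo was 5, and 3 to 5 when 1 sample was left out, with 3 without tumor 312, 275, 316 or 317, in each of which Alpl and Runx3 were lost. The sign reversed in 46LCNEC_allo over 46LCNEC_cell without tumor 319 for Spp1 (-0.33, in a range from -0.33 to 0.56 over the samples left out) and Acan (0.078, from -0.83 to 0.078). It also reversed for the interaction of Acan, which was near 0, under upper quartile scaling (0.034), with a pseudocount of 5 (0.20), and when dish B, tumor 321, flask A, flask B or tumor 316 was left out (range -0.42 to 0.52 over all samples left out). Scaling by library size moved the median of all genes by 0.23 for the cell lines and 0.26 for their allografts, where the share of calls that were higher went from 53.1% to 64.5%. With it, Cbfb in 57SCLC_cell over 46LCNEC_cell reached 1.01 and was called. Leaving out dish A also called Alpl there (-1.03). Spp1 in 57SCLC_allo over 46LCNEC_allo was called by DESeq2 (-1.61), and Ibsp lost its interaction call there (adjusted p = 0.0172). With a pseudocount of 0.1, Sp7 and Ibsp lost theirs (0.0175 and 0.0223), and Bglap in 46LCNEC_allo over 46LCNEC_cell was called with 5 (-1.57). Without dish C, the genes called over the whole table in that comparison were 2428 against 3738. The cause of these shifts was not tested. The letters A, B and C are shared by both cell lines, but same-letter samples did not deviate together (correlations 0.092, -0.084 and -0.0062), so they were not taken as pairs. With the letters as a replicate block the same number of genes, 7, was called, with Runx2 at -10.02. Of 50 levels per length, 9 moved by over 1 SD when size factors replaced library totals. Depth limits Sp7, Ibsp, Bglap and, in 57SCLC, Acan, which rest on few reads.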
